A study of Mus musculus with 6 samples.

Results

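Semaphorins are guidance proteins that were first studied in growing axons, and plexins and neuropilins are their receptors on the cell surface. The family was read here as all genes of the deposited table with the symbols Sema3 to Sema7 followed by 1 letter, the plexins of the A to D groups, and Nrp1 and Nrp2. That rule gave 31 of 34652 genes: 20 semaphorins (the ligands), 9 plexins and 2 neuropilins (the receptors). They were measured in 2 macrophage populations of the cerebrospinal fluid, sorted on day 12 from mice that had received LLC-LeptoM, a lung carcinoma line selected for growth in the leptomeninges. All mice carried the Cx3cr1CreER driver, in which tamoxifen switches on Cre in cells that use the Cx3cr1 gene, and the mTmG reporter, which turns a cell and its progeny from red to green after Cre has acted, and all had been given tamoxifen. The first population, labelled dLAM and described as resident macrophages, was sorted as CD45+CD11b+F4/80+Ly6C-GFP+ cells (3 libraries). The other, monocyte-macrophages, was a mixture of 2 GFP- gates, F4/80+ cells and F4/80 low Ly6C+ cells (3 libraries). Because Cx3cr1 is also used by other cells of the monocyte and macrophage lineage, the green label marks cells that used the gene when tamoxifen was given and not a place of origin. The labels give neither the age of the mice nor whether the libraries of a group came from separate mice, so the spread between libraries may be technical in part.

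Semaphorins signal to neighbouring cells. Class 3 members are secreted, classes 4 to 6 span the membrane, and class 7 is held by a lipid anchor. Plexins are large receptors whose inner part acts on small GTPases and so changes adhesion and the cytoskeleton. Neuropilins have a short inner part and work as co-receptors, together with A-group plexins for class 3 semaphorins and with VEGF receptors for VEGF. In the immune system Sema4a, Sema4d and Sema7a are known as regulators of T cells, B cells and macrophages.

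The values are FPKM, fragments scaled to gene length and to the depth of the library, so levels can be set side by side between genes. The libraries held an estimated 1.23e+07 to 1.70e+07 fragments each, and 10281 to 11470 genes reached 1 FPKM. The test was limma on log2(FPKM + 1) over the 11317 genes that reached 1 FPKM in 3 or more libraries, with a threshold of 0.05 on the adjusted p (Benjamini-Hochberg over all of them). Of these 2249 were higher and 1204 lower in dLAMs, and 65.1% of the calls were thus higher, against 51.4% after quantile normalization, which moved the median of all genes by -0.11 on the log2 scale. The macrophage genes Csf1r, Cd68 and Lyz2 were abundant in both populations, while Itgam, which encodes the CD11b of both gates, averaged 2.13 FPKM in dLAMs and 2.86 in monocyte-macrophages.

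The family was quiet for the most part, and the members above the filter were higher in dLAMs or did not pass the test. Of the 31 members 12 reached the filter and were tested, 6 ligands and 6 receptors. Sema7a, Sema4c and Sema4d among the ligands and Plxna1, Nrp2 and Nrp1 among the receptors were higher in dLAMs, and 0 members were lower by limma, also at an unadjusted p under 0.05. The share of all tested genes that passed in either direction was 30.5%, with 19.9% higher and 10.6% lower. Sema4c and Sema7a reached the filter through the dLAM libraries alone, so they had to differ in level. The median log2 fold change (dLAM minus monocyte-macrophage) was 0.73 over the 12 tested members and 0.06 over all tested genes. Ligands and receptors gave the same count, 3 of 6 tested each, with medians of 0.49 for the ligands and 0.89 for the receptors. The ligand count and median include Sema7a and Sema4c, whose direction the filter fixed. Each of the 6 tested receptors reached 1 FPKM in all 6 libraries, so the 2 counts do not compare like with like. RNA from bulk samples cannot tell fewer cells of a type from less RNA per cell.

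**Figure D1:**
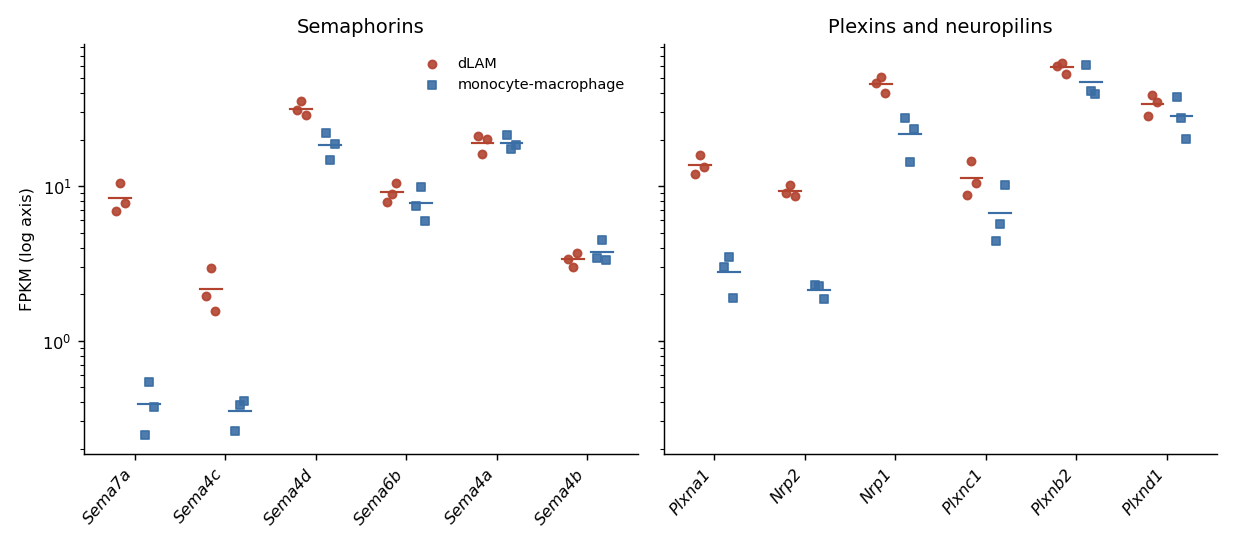
FPKM (log axis) of the 6 tested semaphorins and the 6 tested receptors in the 3 dLAM libraries (circles) and the 3 monocyte-macrophage libraries (squares); short lines are means. The libraries stood apart, with dLAMs higher, for Sema7a, Sema4c, Sema4d, Plxna1, Nrp2 and Nrp1 and overlapped for the other 6 genes.

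For 3 of the semaphorins that were higher, a RefSeq promoter (250 bases before to 50 after the transcript start, build GRCm38.p6, the same assembly as mm10) is shown. A shared regulation of the 3 genes was not tested. Capitals mark a match to TGANTCA, read on both strands. This pattern was used for AP-1, and its N allows any base, so it is a loose one. Sema7a has no match to it, and Sema4c (TGACTCA) and Sema4d (TGAATCA) have 1 each in the start shown.
Sema7a (chr9:57939862-57940161, + strand): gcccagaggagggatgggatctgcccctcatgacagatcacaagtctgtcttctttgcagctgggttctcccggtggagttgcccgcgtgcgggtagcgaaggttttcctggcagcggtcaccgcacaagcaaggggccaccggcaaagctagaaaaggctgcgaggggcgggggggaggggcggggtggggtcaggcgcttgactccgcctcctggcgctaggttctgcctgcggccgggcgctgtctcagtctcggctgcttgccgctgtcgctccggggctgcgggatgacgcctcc
Sema4c (chr1:36558332-36558631, - strand): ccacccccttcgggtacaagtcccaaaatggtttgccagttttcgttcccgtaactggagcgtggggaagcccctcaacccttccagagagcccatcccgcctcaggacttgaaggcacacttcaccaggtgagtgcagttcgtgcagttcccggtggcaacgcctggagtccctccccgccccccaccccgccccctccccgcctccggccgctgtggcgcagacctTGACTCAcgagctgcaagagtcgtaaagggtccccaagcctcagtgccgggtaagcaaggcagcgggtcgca
Sema4d (chr13:51748761-51749060, - strand): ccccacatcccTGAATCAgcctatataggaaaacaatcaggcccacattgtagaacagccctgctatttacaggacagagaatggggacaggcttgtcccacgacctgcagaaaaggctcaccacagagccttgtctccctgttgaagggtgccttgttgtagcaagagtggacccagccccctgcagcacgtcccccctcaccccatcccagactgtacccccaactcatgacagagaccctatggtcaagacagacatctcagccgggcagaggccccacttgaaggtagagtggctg
Sema4c has another start and Sema4d 2 more in the same table, with no match, so the starts shown for these genes are the ones with a match. The Sema4d windows lie inside the annotated gene (chromosome 13, 51685529 to 51793747, - strand) and not at its outer start. In the RefSeq table promoters were found for 26 of the 31 members (Plxna1, Plxna4, Sema3b, Sema3f and Sema6a have no entry), 37 in all, and 3 of the 37 (8.11%) held TGANTCA, those of Sema4c, Sema4d and Sema6b, against 7.81% of all 32851 promoters. The PU.1 motif GAGGAAGT was in 0 of the 37 and in 3.20% of all promoters, the STAT motif TTCNNNGAA in 1 (Sema3e) and in 8.30%, and an NF-kB motif in 0 and in 0.411%. PU.1, STAT and NF-kB motifs are not in the promoters shown, so no matches overlap. The Sema7a and Sema4c windows hold 23 and 19 CG dinucleotides and the Sema4d window 3, where the median of all promoters is 7.

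Sema7a, the GPI-anchored semaphorin that binds integrins and Plxnc1, had the largest difference of the 12 tested members on the log2(FPKM + 1) scale. It stood at 6.95, 10.5 and 7.74 FPKM in the dLAM libraries, against 0.244, 0.539 and 0.374 FPKM in the monocyte-macrophage libraries, which rest on about 11, 25 and 21 fragments each. Every dLAM library was far above every monocyte-macrophage library, and the means, 8.38 ± 1.84 and 0.386 ± 0.148 FPKM (SD, n = 3 each), differed 21.7-fold. The log2 fold change was 2.75 (SE 0.17, limma adjusted p = 5.1e-05), place 87 of 11317 genes ordered from the highest. Sema7a reached the filter through the dLAM libraries alone, which fixed its direction, so the p and the place only describe its size. The gene lies on chromosome 9 (57940112 to 57962865, mm10).

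Of the 6 class 4 semaphorins, which span the membrane, 2 rose, 2 did not pass the test, and Sema4f and Sema4g were under the filter and not tested. Sema4c, a ligand of Plxnb2 that is best known from follicular helper T cells and the nervous system, stood at 1.95, 2.93 and 1.56 FPKM in dLAMs and 0.261, 0.385 and 0.404 FPKM in monocyte-macrophages. The groups did not overlap, and the means of 2.15 ± 0.705 and 0.350 ± 0.0778 FPKM (SD, n = 3 each) differed 6.14-fold (log2 fold change 1.2, SE 0.18, limma adjusted p = 0.0021). Sema4c too reached the filter through the dLAM libraries alone, which fixed its direction. An antisense gene, D430040D24Rik, covers 7.27% of the Sema4c exons and was listed at 0.399 FPKM or less in each library. Strand handling is not given in the sources used here, so reads of the overlap cannot be assigned.

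Sema4d, known as CD100, was the most abundant semaphorin in dLAMs. It is shed from cells and binds Plxnb1, Plxnb2 and, on immune cells, CD72. Its levels were 31.0, 35.5 and 28.8 FPKM in dLAMs and 22.1, 14.8 and 18.9 FPKM in monocyte-macrophages, with no overlap. The difference was smaller than for Sema7a: a log2 fold change of 0.75 (SE 0.16, limma adjusted p = 0.0091) and a 1.71-fold ratio of means.

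Sema4a, a costimulator of T cells that binds Plxnd1 and B-group plexins, was close in level in both populations, with 21.1, 16.1 and 20.3 FPKM in dLAMs and 21.3, 17.3 and 18.6 FPKM in monocyte-macrophages. The libraries overlapped, the log2 fold change was 0.00 (95% interval -0.31 to 0.31, limma adjusted p = 0.99), and its sign turned with the scaling. Sema4b stood at 3.36 ± 0.342 FPKM in dLAMs and 3.74 ± 0.644 in monocyte-macrophages (SD, n = 3 each; log2 fold change -0.12, 95% interval -0.44 to 0.21). Sema6b, a class 6 member that binds A-group plexins, stood at 7.89, 8.91 and 10.5 FPKM in dLAMs and 7.47, 9.89 and 5.94 FPKM in monocyte-macrophages, a log2 fold change of 0.22 (95% interval -0.21 to 0.65, limma adjusted p = 0.41). The intervals of these 3 genes leave room for changes of up to those sizes.

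The order of the semaphorins differed between the populations in part. In dLAMs Sema4d came first (28.8 to 35.5 FPKM), above Sema4a (16.1 to 21.1) in each library, followed by Sema6b (7.89 to 10.5) and Sema7a (6.95 to 10.5), which overlapped, then Sema4b (3.0 to 3.68) and Sema4c (1.56 to 2.93). In monocyte-macrophages Sema4a (17.3 to 21.3 FPKM) and Sema4d (14.8 to 22.1) overlapped at the top, Sema6b (5.94 to 9.89) and Sema4b (3.31 to 4.48) followed, and Sema7a and Sema4c both lay under 1 FPKM. The ratio of Sema4d to Sema4a was 1.47, 2.203 and 1.42 in dLAMs and 1.04, 0.856 and 1.015 in monocyte-macrophages. That ratio did not overlap between the groups, with an exact two-sided permutation p of 0.1, the smallest that 3 against 3 libraries allow. The same p was found for all 6 ratios compared, which were chosen after the values were seen, and it was 0.1 after adjustment. The ratio of Sema7a to Sema4a was 0.330, 0.649 and 0.382 in dLAMs and 0.0114, 0.0312 and 0.0202 in monocyte-macrophages.

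**Figure D2:**
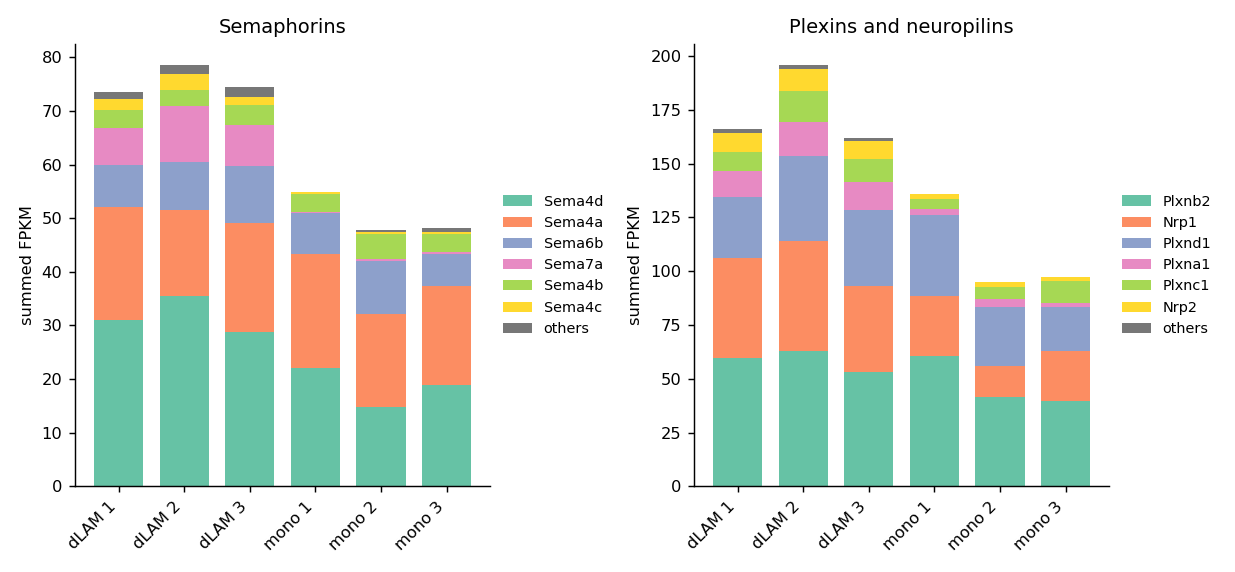
Summed FPKM of the semaphorins (left) and of the plexins and neuropilins (right) in each library, split by gene; dLAM libraries stand left of monocyte-macrophage libraries (mono), and members with under 1 FPKM in every library are pooled as others. The Sema7a band is 6.95 to 10.5 FPKM high in dLAMs and 0.244 to 0.539 in monocyte-macrophages, and Nrp1, Plxna1 and Nrp2 take more of the receptor bar in dLAMs than in monocyte-macrophages on average.

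Summed over the 20 ligands, dLAM libraries held 73.6, 78.5 and 74.4 FPKM and monocyte-macrophage libraries 54.9, 47.8 and 48.2 FPKM. Sema4d and Sema4a made up most of it in both. Sema7a took 9.45% to 13.3% of the ligand sum in dLAMs and 0.444% to 1.13% in monocyte-macrophages, and Sema4a 20.5% to 28.6% and 36.1% to 38.8%. Summed over the 11 receptors, dLAM libraries held 166, 196 and 162 FPKM and monocyte-macrophage libraries 136, 95.1 and 97.4 FPKM. The ratio of receptor to ligand FPKM overlapped between the populations, at 2.25, 2.49 and 2.17 in dLAMs and 2.48, 1.99 and 2.02 in monocyte-macrophages.

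Among the 6 tested receptors, Plxna1 had the largest difference on the log2(FPKM + 1) scale. Plxna1 pairs with neuropilins for class 3 semaphorins and, in dendritic cells and osteoclasts of the mouse, with Trem2 and Tyrobp (DAP12) as the receptor of Sema6d. It stood at 12, 16.0 and 13.3 FPKM in dLAMs, against 2.99, 3.48 and 1.89 FPKM in monocyte-macrophages, with every dLAM library above every monocyte-macrophage library. The means were 13.8 ± 2.03 and 2.79 ± 0.815 FPKM (SD, n = 3 each), 4.94-fold apart, and the log2 fold change was 1.98 (SE 0.19, limma adjusted p = 2.9e-04). The gene (chromosome 6, 89316314 to 89362620, mm10) shares 10.7% of its exons with the antisense gene Gm26811, which was listed at 0.0440 FPKM or less.

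Both neuropilins were higher in dLAMs. Nrp2, a co-receptor for Sema3f and VEGF-C, stood at 9.08, 10.2 and 8.61 FPKM in dLAMs and 2.30, 2.27 and 1.85 FPKM in monocyte-macrophages, a log2 fold change of 1.71 (SE 0.12, limma adjusted p = 9.4e-05). The 3 values of each group lay close together and far from those of the other group, with a 4.34-fold ratio of means. Nrp1, the co-receptor for Sema3a and VEGF-A that also marks many regulatory T cells, stood at 46.3, 51.1 and 40.1 FPKM in dLAMs and 27.7, 14.4 and 23.4 FPKM in monocyte-macrophages, a log2 fold change of 1.07 (SE 0.22, limma adjusted p = 0.0097). The ratio of Nrp2 to Nrp1 was 0.196, 0.199 and 0.215 in dLAMs and 0.0830, 0.157 and 0.0789 in monocyte-macrophages, with no overlap and the same exact permutation p of 0.1.

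Plxnb2, Plxnd1 and Plxnc1 were well expressed in both populations and did not pass. Plxnb2, a receptor of Sema4c and Sema4d, was the most abundant gene of the family in all 6 libraries, at 59.8, 63.1 and 53.2 FPKM in dLAMs and 60.5, 41.5 and 39.7 FPKM in monocyte-macrophages. Monocyte-macrophage library 1 lay within the dLAM range. The log2 fold change was 0.33 (95% interval -0.06 to 0.72, limma adjusted p = 0.19), and without monocyte-macrophage library 1 it was 0.52 and passed (limma adjusted p = 0.018, range over all alternatives 0.018 to 0.42). Plxnd1, the receptor of Sema3e that is best known from blood vessels, stood at 28.6, 39.1 and 35.0 FPKM in dLAMs and 37.8, 27.5 and 20.2 FPKM in monocyte-macrophages, a log2 fold change of 0.29 (95% interval -0.23 to 0.81, limma adjusted p = 0.38). Plxnc1, the plexin that binds Sema7a, stood at 8.80, 14.6 and 10.5 FPKM in dLAMs and 4.41, 5.71 and 10.1 FPKM in monocyte-macrophages, where library 3 was the highest. Its log2 fold change was 0.71 (95% interval 0.05 to 1.37, limma adjusted p = 0.10), and 1.002 without monocyte-macrophage library 3, which passed (limma adjusted p = 0.018, range over all alternatives 0.018 to 0.29).

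**Figure D3:**
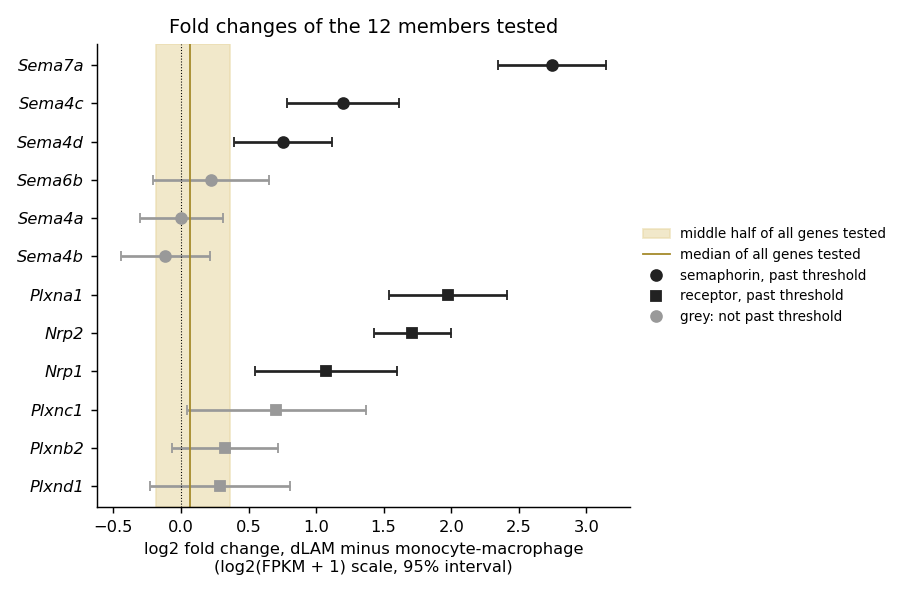
Log2 fold change (dLAM minus monocyte-macrophage, log2(FPKM + 1) scale) with its 95% interval for the 6 tested semaphorins (circles) and 6 tested receptors (squares), black where limma's adjusted p was under 0.05; the band spans the quartiles of all 11317 tested genes (-0.19 to 0.37). The 6 black genes have intervals above the band, and the grey ones reach into it.

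The remaining 19 members, 14 semaphorins and 5 plexins, stayed under 1 FPKM in every library. Sema6d, the class 6 ligand of Plxna1, was the highest of the semaphorins among them, at 0.481, 0.776 and 0.614 FPKM in dLAMs (about 75, 101 and 81 fragments), against 0, 0.0480 and 0.00914 FPKM in monocyte-macrophages. Plxna4, a receptor of Sema6a and Sema6b and of class 3 ligands with neuropilins, was listed at 0.728, 0.597 and 0.507 FPKM in dLAMs (about 152, 104 and 89 fragments), and at 0, 0.0696 and 0 FPKM in monocyte-macrophages. Both were low, and for both every dLAM library lay above every monocyte-macrophage library. Plxnb3 stood at 0.240, 0.316 and 0.313 FPKM in dLAMs and at 0.170, 0.0947 and 0.104 FPKM in monocyte-macrophages. Plxna3 stood at 0.247, 0.648 and 0.275 FPKM in dLAMs, and at 0.0119, 0.0810 and 0.0669 FPKM in monocyte-macrophages. Plxna2 and Plxnb1 were at 0.146 FPKM or less throughout.

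The secreted class 3 semaphorins were listed at or near 0. Sema3a, Sema3b, Sema3c, Sema3d, Sema3e, Sema3f and Sema3g together came to 0.217, 0.188 and 0.357 FPKM in dLAMs and 0.0884, 0.299 and 0.213 FPKM in monocyte-macrophages. Sema3g, a ligand of Nrp2, was listed at 0, 0 and 0 FPKM in dLAMs and at 0, 0.125 and 0.142 FPKM in monocyte-macrophages, about 8 and 11 fragments in libraries 2 and 3. Sema3a and Sema3e were listed above 0 in each dLAM library, on at most about 8 fragments, and at 0 in each monocyte-macrophage library. Sema5a and Sema6a showed the same pattern, with at most 0.0938 FPKM. Sema5b was listed at 0 in all 6 libraries. Sema4f overlapped, at 0.339, 0.517 and 0.700 FPKM in dLAMs and 0, 0.0476 and 0.491 FPKM in monocyte-macrophages, while Sema4g stood at 0.0742 to 0.166 FPKM in dLAMs and 0.0120 to 0.0655 in monocyte-macrophages. Sema6c overlapped as well and stayed at 0.0563 FPKM or less.

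Over all 31 members, the libraries did not overlap for 16, each with dLAMs higher, and for 0 with monocyte-macrophages higher. Of 22145 genes above 0 in at least 1 library, the shares were 25.3% and 10.4%. Among the 19 low members 10 did not overlap, all with dLAMs higher, where 21.1% of the genes under the filter did so and 3.50% did so with monocyte-macrophages higher. With no filter, limma called 9 of 30 members higher and 0 lower (18.0% of all genes called, 13% higher and 4.99% lower), the 3 added ones being Sema6d (limma adjusted p = 0.0032), Plxna4 (limma adjusted p = 0.0024) and Plxnb3 (limma adjusted p = 0.039).

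**Figure D4:**
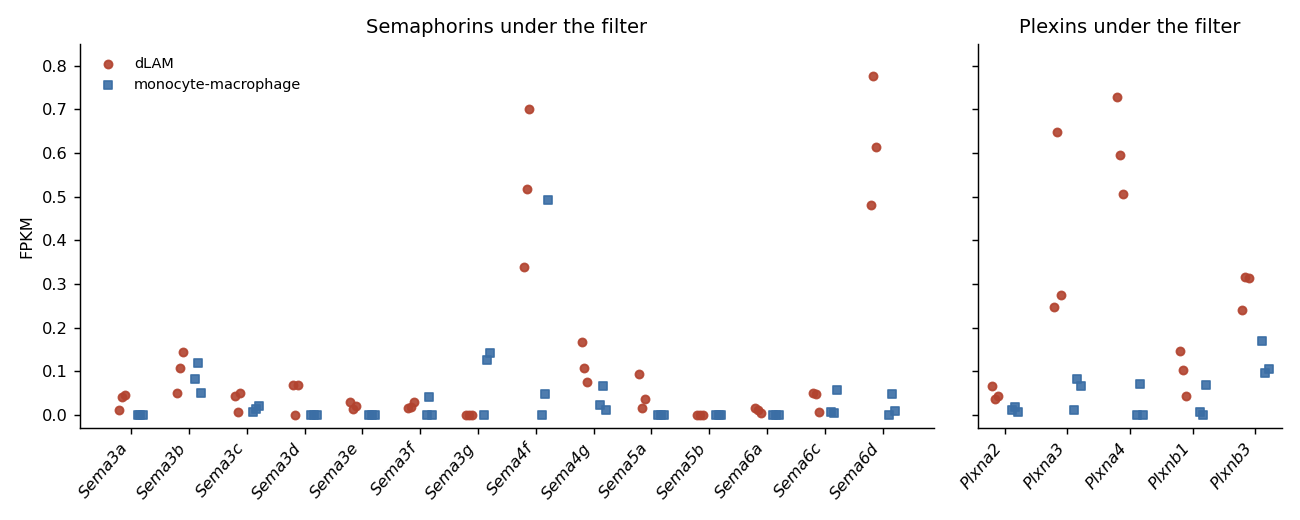
FPKM (linear axis) of the 14 semaphorins and 5 plexins that stayed under 1 FPKM in every library, in dLAMs (circles) and monocyte-macrophages (squares). Sema6d and Plxna4 stand out in dLAMs at 0.481 to 0.776 FPKM and 0.507 to 0.728 FPKM, and most class 3 semaphorins lie at or near 0.

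Known partners outside the family moved in both directions. Of 16 listed receptors and partners, 12 were tested, of which 4 were higher, 4 lower and 4 did not pass (median log2 fold change 0.03, against 0.06 over all genes). Among all tested genes 19.9% were higher and 10.6% lower. Not every gene of that list binds a semaphorin. Cd72 and Plxdc2 reached the filter through the dLAM libraries alone and Mst1r through the monocyte-macrophage libraries alone, so the filter fixed the direction of these 3. Cd72, the CD100 receptor of immune cells, stood at 9.57, 11.1 and 10.1 FPKM in dLAMs and 0.421, 0.277 and 0.0732 FPKM in monocyte-macrophages, a log2 fold change of 3.17 (SE 0.14, limma adjusted p = 1.9e-05). Plxdc2, a plexin domain protein, was higher by 2.79. Itgb1, the integrin beta chain that binds Sema7a, stood at 94.7 ± 4.84 FPKM in dLAMs and 52.6 ± 4.43 in monocyte-macrophages (SD, n = 3 each), whereas its alpha partner Itga1 fell by 1.56 on the log2 scale, to 7.09 ± 1.31 FPKM in dLAMs, against 23.1 ± 5.22 in monocyte-macrophages. Hmmr, a hyaluronan receptor and spindle gene, fell by 1.57, and the receptor tyrosine kinase genes Met and Mst1r, partners of B-group plexins, fell by 1.26 and 0.97. Trem2 was higher by 1.98, at 12.2 ± 1.72 FPKM in dLAMs and 2.38 ± 0.779 in monocyte-macrophages, while its adaptor Tyrobp stood at 442 ± 34.9 FPKM in dLAMs and 572 ± 40.4 in monocyte-macrophages and did not pass (log2 fold change -0.37, limma adjusted p = 0.078).

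Of 32 listed effectors, genes that act below plexins, 25 were tested, 12 were higher, 1 lower and 12 did not pass (median 0.12), where 19.9% of all tested genes were higher and 10.6% lower. Of the 12, Rras2, Farp1, Farp2, Arhgef12 and Mical3 reached the filter through the dLAM libraries alone, which fixed their direction. Rras2, a relative of the R-Ras GTPase that plexins inactivate, was higher by 1.63 and the kinase gene Fyn by 1.57, with Fyn at 19.9 ± 1.01 FPKM in dLAMs and 6.09 ± 1.27 in monocyte-macrophages (SD, n = 3 each). Farp1 and Farp2, exchange factors for Rac, were higher by 1.37 and 0.87, and Arhgef12, an exchange factor that binds B-group plexins, by 1.11. Dpysl2, which encodes the collapsin response mediator CRMP2, stood at 59.7 ± 8.17 FPKM in dLAMs and 25.2 ± 8.20 in monocyte-macrophages. Fes fell by 0.32, a call that ended under 8 of 16 alternatives.

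The VEGF and TGF-beta genes tied to neuropilins had 4 higher and 0 lower of 8 tested, from 13 listed, of which 12 were in the table (median 0.82). Among all tested genes 19.9% were higher and 10.6% lower. Vegfb, a ligand of Nrp1, stood at 12.1 ± 2.61 FPKM in dLAMs and 1.79 ± 0.296 in monocyte-macrophages (SD, n = 3 each; log2 fold change 2.22, limma adjusted p = 1.3e-04). Kdr, 1 of the 4, reached the filter through the dLAM libraries alone. Tgfbr2 was higher by 1.82 and Tgfbr1 by 1.21, while Vegfa, with 13.2 ± 3.99 FPKM in dLAMs and 17.9 ± 5.51 in monocyte-macrophages, did not pass. Of 11 genes that cut or process semaphorins 8 were tested and 2 of the 8 were higher (median 0.16), close to the 19.9% of all tested genes. Mmp14, a membrane protease known to release Sema4d from human tumor cells, stood at 59.8, 55.4 and 60.6 FPKM in dLAMs and 8.65, 13.5 and 6.35 FPKM in monocyte-macrophages, a log2 fold change of 2.56 (SE 0.22, limma adjusted p = 2.2e-04). Adam9 was higher by 0.38, a call lost under 10 of 16 alternatives. The log2 fold change was -0.01 for Adam10, 0.33 for Adam17 and 0.11 for Furin, none of which passed.

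**Figure D5:**
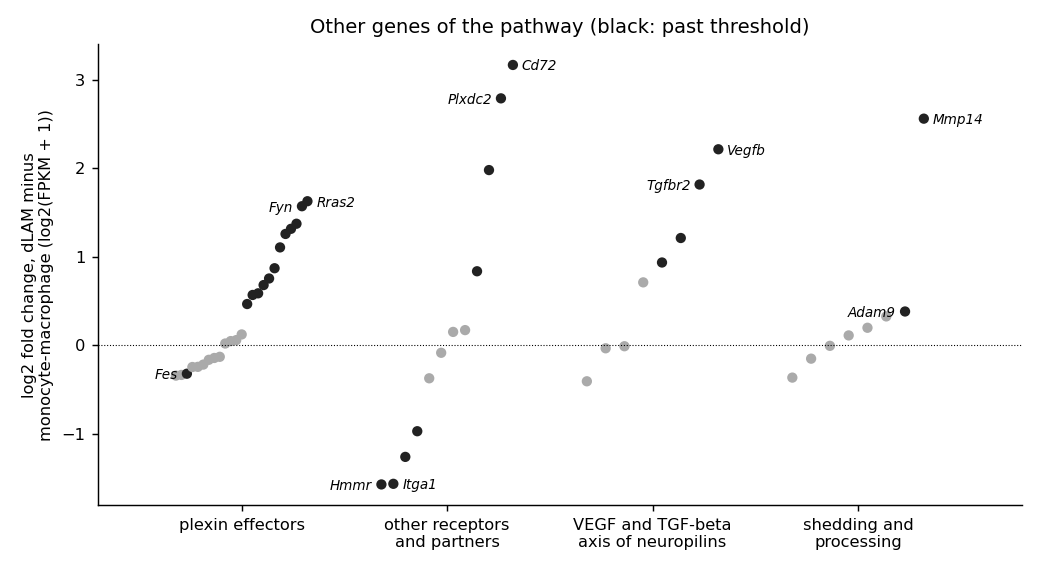
Log2 fold change (dLAM minus monocyte-macrophage, log2(FPKM + 1) scale) of each tested gene in 4 lists around the semaphorin pathway, ordered from low to high within a list; black points passed limma's adjusted p of 0.05 and the extremes are named. Cd72 and Mmp14 were the highest of their lists at 3.17 and 2.56, and Hmmr and Itga1 had the lowest values among the receptors and partners, at -1.57 and -1.56.

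Markers of other cells that use these genes moved with the groups. All 14 T cell markers were higher in dLAM libraries, with a summed level of 227 to 288 FPKM in dLAMs and 7.62 to 38.7 FPKM in monocyte-macrophages (later pairs of ranges also give dLAMs and then monocyte-macrophages), and Foxp3, which defines regulatory T cells, averaged 5.25 FPKM in dLAMs and 0.0964 FPKM in monocyte-macrophages. All 6 tested of 8 migratory dendritic cell markers were higher (175 to 253 FPKM in dLAMs, 1.22 to 3.21 in monocyte-macrophages), as were 7 of 8 conventional dendritic cell markers (64.6 to 116 and 12.7 to 16.5 FPKM) and all 5 tested of 8 B cell markers (19.2 to 28.7 and 1.61 to 5.24 FPKM). Markers of natural killer cells (all 5 tested of 7 higher, 21.5 to 32.6 and 3.55 to 7.95 FPKM), plasmacytoid dendritic cells (4 of 5 tested, 39.0 to 47.0 and 9.72 to 32.3 FPKM) and mast cells, basophils and eosinophils (3 of 4 tested, 27.0 to 67.0 and 1.19 to 1.81 FPKM) moved alike, with Cpa3, Mcpt4, Fcer1a and Prss34 listed at 0 in each monocyte-macrophage library. In the same list Siglecf (means 1.69 FPKM in dLAMs and 1.02 in monocyte-macrophages) did not pass. Ms4a2 (0.297 and 0.305) was under the filter and overlapped. Border macrophage (8 of 8 higher, 213 to 231 and 11.2 to 24.5 FPKM) and microglia markers (8 of 8, 237 to 414 and 62.5 to 85.6 FPKM) were higher too, with Folr2 and Timd4 listed at 0 in each monocyte-macrophage library; Siglech stands in both the microglia and the plasmacytoid list. Of 8 macrophage markers 3 (Adgre1, Csf1r and Mertk) were higher, 1, Lyz2, lower, and 4 did not pass (3633 to 5150 and 6933 to 10416 FPKM). Lyz2 made up most of these sums, at 3115 to 4533 and 6585 to 9972 FPKM. Csf1r averaged 251 FPKM in dLAMs and 121 in monocyte-macrophages. All 8 classical monocyte markers were lower (843 to 1099 and 4073 to 5528 FPKM), as were 5 of 8 neutrophil (479 to 701 and 1043 to 5620 FPKM) and all 8 cycling markers (91.7 to 108 and 268 to 384 FPKM). In most lists with higher genes, some or all of these reached the filter through the dLAM libraries alone (5 of the 6 for migratory dendritic cells, for example), while the summed levels use every gene of a list with no filter. The counts stand beside 19.9% of all tested genes higher and 10.6% lower. The part of these cells in the differences of Sema7a, Sema4c, Sema4d, Plxna1, Nrp1, Nrp2, Sema6d, Plxna4 and Cd72 was not tested. Endothelial markers, whose cells are a known source of Plxnd1, Nrp1 and class 3 semaphorins, summed to 7.04 to 7.80 FPKM in dLAMs and 4.15 to 5.28 in monocyte-macrophages. Flt1 (means 2.31 and 2.36 FPKM) and Pecam1 (2.11 and 1.79), the highest of them, did not pass, while Kdr (1.24 and 0.169) was higher in dLAMs. Cdh5 (1.02 and 0.397) and Vwf (0.631 and 0.0744) were under the filter and not tested. For both, every dLAM library lay above every monocyte-macrophage library. Cldn5, Tek and Emcn were listed at 0 in each monocyte-macrophage library and averaged only 0.0191, 0.0256 and 0.0123 FPKM in dLAMs. Meningeal fibroblast (4.13 to 6.08 and 0.433 to 1.48 FPKM) and neural and choroid markers (7.83 to 14.8 and 6.65 to 8.36 FPKM) were low. Of the 8 carcinoma markers 3 were tested and higher (list sums 27.0 to 31.9 and 1.99 to 3.18 FPKM). Cdh1 averaged 21.6 FPKM in dLAMs and 1.71 in monocyte-macrophages, Epcam 6.02 and 0.165, and Krt18 1.43 and 0.345. The other markers were near 0. Krt19 and Cldn4 were listed at 0 in each monocyte-macrophage library and averaged 0.0575 and 0.0124 FPKM in dLAMs. Krt8 and Cldn7 overlapped, and Krt7 was higher in monocyte-macrophages without overlap (means 0.164 in dLAMs and 0.305 in monocyte-macrophages).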

How the data were processed

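The samples were 6 RNA libraries, 3 of dLAMs and 3 of monocyte-macrophages, from RNA with an integrity number above 7, sequenced as read pairs of 150 bp per the labels' protocols. The deposited values are FPKM, in 1 table. Per the submitters' processing notes, FastQC, HISAT2 and featureCounts were used with mm10. Versions, annotation, strand setting and gene lengths: not given in the sources used here. Titles gave the group and number of each library.

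FPKM are not counts, so no count test was used. Depth was estimated from steps of 1 fragment in FPKM multiplied by GENCODE M21 exon length (32672 of 34652 symbols matched). Between 40.4% and 44.1% of values under 20 fragments came out whole within 0.02, so counts were not recovered and fragment numbers are approximate. Fragment numbers cover counting error only.

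Values were fitted as log2(FPKM + 1) with limma 3.58.1 in R 4.3.3 (group as the only term, mean-variance trend), which understates the change of low genes. Intervals are 95% limits from that fit. A value of 0 in the table can be a missing estimate and is given as listed at 0. Ratios were tested in scipy 1.17.1 by exact permutation under Python 3.11.15. The fit was tested on simulated data with 50 changed genes of each size. It recovered 24%, 68%, 94% and 96% of log2 changes of 0.5, 1, 2 and 3, with 3 false calls. Small changes are thus often missed, and a gene that did not pass can still differ. Far more genes, 3453, passed in the real data, so these shares need not hold there.

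The members and the gene lists were chosen with earlier results of these data known. Every member is named, and of each pathway list the 2 largest rises and 2 largest falls that passed; other named genes of these lists were added after their values were seen. The 16 alternatives covered pseudocount, filter, scaling, replicate block, a term for Y-linked RNA, the trend and each library left out.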

Additional observations from a re-analysis of the deposited data

How the results depend on the processing

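The 6 calls held under every alternative fitted, with the exception that Sema4c was not among the genes left at a filter of 5 FPKM. For Sema4c and Sema7a the direction was fixed by the filter, so their stability adds nothing to it. The highest limma adjusted p was 0.043 for Nrp1, 0.041 for Sema4d, 0.019 for Sema4c, 0.0023 for Plxna1, 0.0013 for Nrp2 and 7.0e-04 for Sema7a. Leaving out 1 library gave 6 to 7 members higher and 0 lower, 3 ligands and 3 to 4 receptors higher, and 1590 to 2096 genes higher and 780 to 1220 lower, the 780 without dLAM library 2 (fewer samples). A filter of 5 FPKM left 1247 genes higher (fewer genes tested), and no filter gave 5 receptors higher (more genes tested). Sema4a turned to -0.0784 with median-of-ratios scaling, to -0.0205 with quantile normalization and to between -0.0660 and 0.118 without 1 library; the cause was not tested. Kdr lost its call with quantile normalization (limma adjusted p = 0.16) and Mical3 under 8 of the 15 alternatives fitted.

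Same-numbered libraries correlated at 0.19, -0.15 and -0.09 in their deviations from the group means, which gives no sign of pairing by number. The highest correlation, 0.39, was between dLAM library 3 and monocyte-macrophage library 2. With 3 libraries in a group these values cannot exclude a pairing, by number or otherwise. With a replicate block 1860 genes were higher and 999 lower, and 6 members were higher and 0 lower. A term for Y-linked RNA, high in dLAM library 3 and monocyte-macrophage library 2, gave 6 members higher and 0 lower too. At this depth 1 fragment is worth 0.0294 to 0.0406 FPKM for 2 kb of exon, so members under about 0.1 FPKM rest on few fragments.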

Other observations

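Other families of guidance genes stayed mostly under the filter in both populations. Of 37 listed netrin, Slit, Robo, ephrin, Eph and RGM genes 36 were in the table and 2 reached the filter, both higher in dLAMs, where 19.9% of all tested genes were higher. Epha2, an Eph receptor kinase gene, stood at 1.99, 2.30 and 1.5 FPKM in dLAMs and 0.576, 0.497 and 0.326 FPKM in monocyte-macrophages (log2 fold change 0.99, SE 0.15, limma adjusted p = 0.0024). Rgmb, which encodes a repulsive guidance molecule that also binds PD-L2, stood at 6.37, 5.77 and 4.01 FPKM in dLAMs and 2.86, 2.67 and 2.16 FPKM in monocyte-macrophages (log2 fold change 0.83, SE 0.17, limma adjusted p = 0.0099). Epha2 reached the filter through the dLAM libraries alone, which fixed its direction, and the Rgmb libraries of the groups did not overlap. The ephrin genes Efnb1 and Efnb2 averaged 0.809 and 0.789 FPKM in dLAMs and 0.488 and 0.491 FPKM in monocyte-macrophages. Summed over the list, dLAM libraries held 9.54 to 13.3 FPKM and monocyte-macrophage libraries 4.26 to 5.997 FPKM, below the sum over the semaphorins in each library.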
